A study of Drosophila melanogaster with 2 samples.

Results

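The 8 Hox genes of Drosophila melanogaster, lab, pb, Dfd, Scr, Antp, Ubx, abd-A and Abd-B, were examined for binding of the zinc finger transcription factor Tiptop (Tio) in whole embryos. They are 8 of 13945 annotated protein-coding genes on the 6 main chromosome arms and were chosen by name. All lie on arm 3R, the first 5 in the Antennapedia complex and the others in the Bithorax complex. Peak summits were collected from each gene span extended 1 kb upstream and from the 6 intervals between neighbours of the same complex, which gave 25 of 3793 reproducible peaks, 12 in the gene spans and 13 between them.

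Binding was mapped by chromatin immunoprecipitation and sequencing (ChIP-seq) in a transgenic fly line that stably carries Tio with enhanced GFP fused at its C terminus, with an antibody against GFP per the samples' description, while their antibody field names tio. The embryos were of both sexes, pooled, and 4 to 24 h old, and the chromatin was sonicated to 200 to 800 bp. There were 2 biological replicates of this 1 group, so no condition was compared with another and no test was run. The control was not analysed here. Whole embryos mix all cell types, so a peak in fewer cells and a weaker peak in more cells cannot be told apart.

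Hox genes encode homeodomain transcription factors that give each segment its identity along the body axis, and their order on the chromosome follows the order of their domains in the embryo. Long introns and intergenic sequence hold enhancers, insulators and Polycomb response elements that set and keep these domains. Teashirt, the paralog of Tio, acts with the trunk Hox proteins to give trunk segments their identity.

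Tio peaks were found in 5 of the 8 Hox genes. Antp held 7 summits, Abd-B held 2, and lab, Dfd and Ubx held 1 each, while pb, Scr and abd-A held none. Over all protein-coding genes, 16.2% held a summit, and over the 1977 genes of 10 kb or more, a class to which all 8 Hox genes belong, 49.0% did. A count over 8 genes was given no test, and nothing particular to the Hox genes is read from it. Between the genes, the interval from pb to Dfd held 4 summits, abd-A to Abd-B 4, Ubx to abd-A 3, Dfd to Scr 1, Scr to Antp 1 and lab to pb 0.

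The strength of a peak is given as the authors' signal value, whose scaling no source states. The pooled value comes from both replicates together, so it cannot be set against a value of either replicate, and the depth of the libraries is unknown. Ranks count from the highest signal in a list. The pooled signal of the 25 summits ran from 92.9 to 312 with a median of 141, beside 145 over all 3793 peaks, whose values ran from 87.5 to 2080. The best rank in the complexes was 530, so none of the 500 strongest peaks was there, and 12 of 25 (48.0%) were in the stronger part of the list divided at its middle rank. The Hox peaks were thus of middle strength. The deposited -log10 q values of the 25 ran from 1.753 to 3.492.

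The Antennapedia complex, 338802 bp from the end of lab to 1 kb beyond the distal Antp start, held 15 reproducible summits, or 4.43 per 100 kb. The Bithorax complex, 316614 bp, held 10, or 3.16 per 100 kb. Arm 3R as a whole held 2.64 per 100 kb and the 6 arms 2.83. Arm densities were taken over the whole arm sequence, 32079331 bp for 3R, and close pairs were counted as separate summits. The differences in density were not tested. The pooled list, which also takes in weak background regions, held 28.0 regions per 100 kb in the Antennapedia complex, 27.2 in the Bithorax complex and 21.8 on arm 3R. Maps of both complexes show reproducible summits as groups and single peaks between long stretches that hold weaker regions only.

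**Figure D1:**
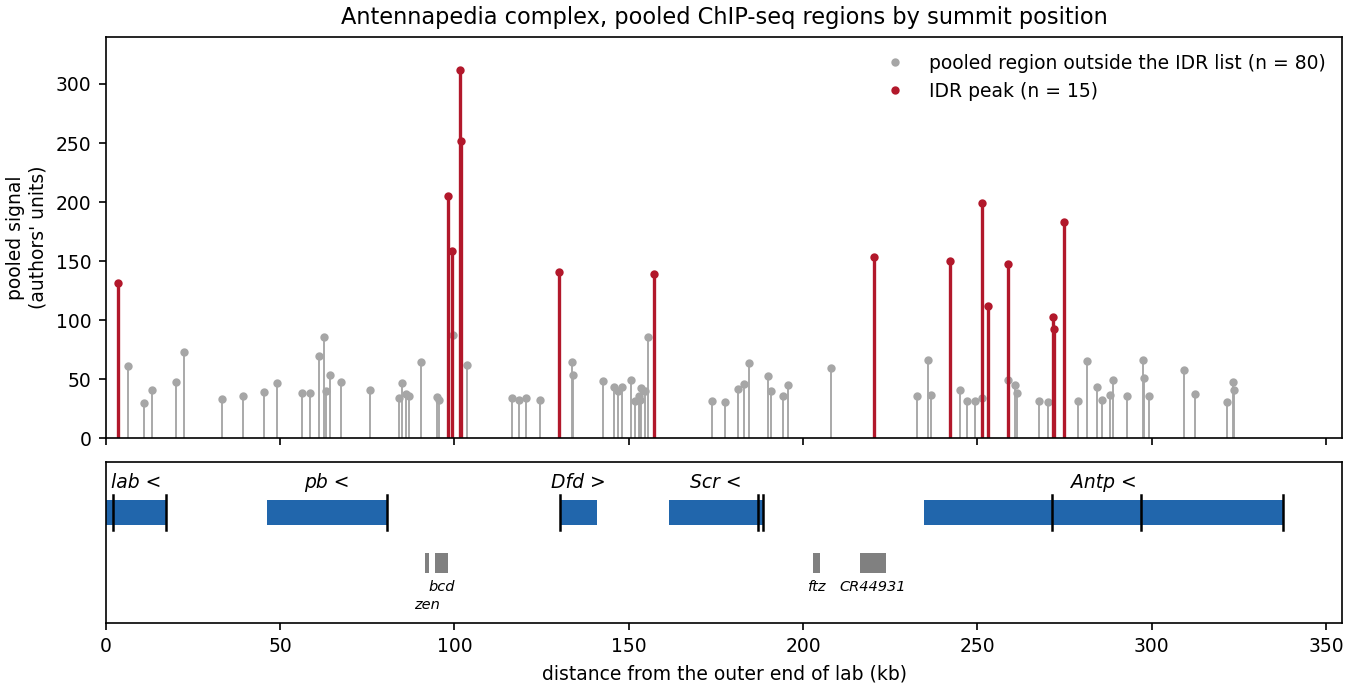
Pooled signal (authors' units) of each region against its distance from the outer end of lab (kb), with the 15 reproducible (IDR) peaks in red and the 80 other pooled regions in grey. Below, Hox genes are blue with their start sites as black lines and arrowheads for strand, and other named genes are grey; the tallest peak, 312, lies between pb and Dfd, and 7 peaks lie in Antp.

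**Figure D2:**
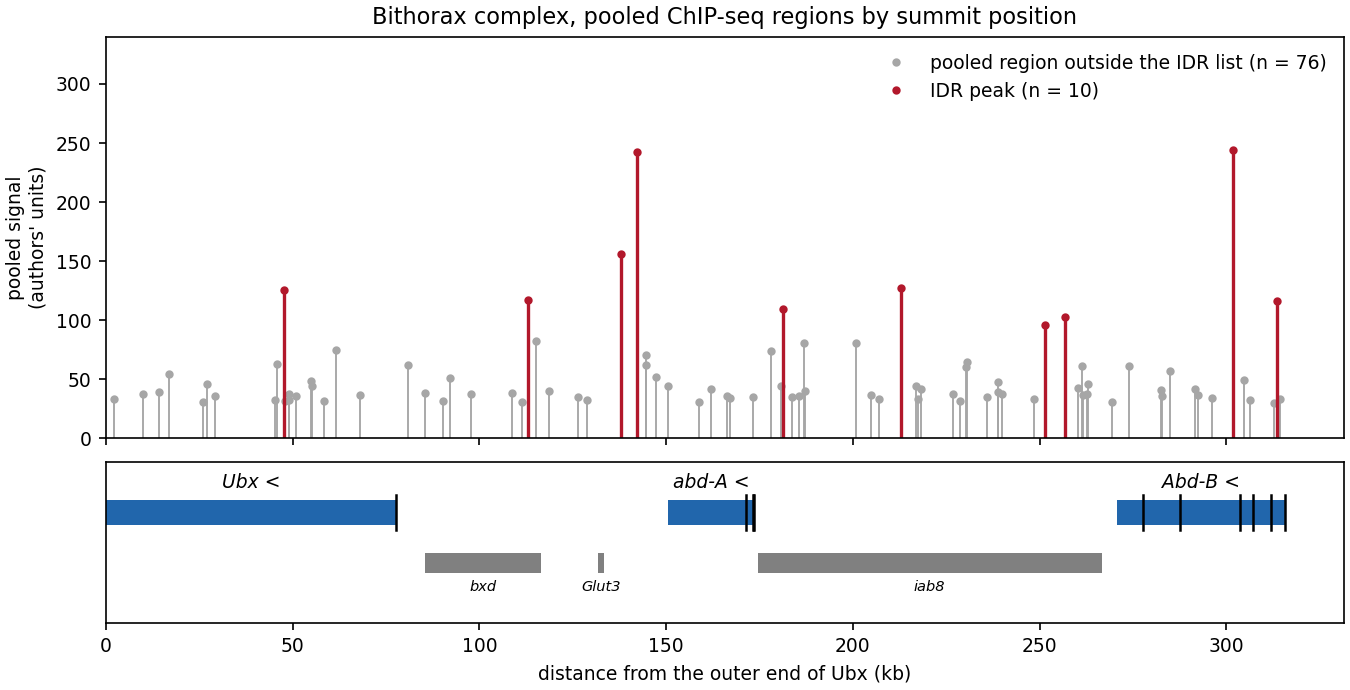
Pooled signal (authors' units) of each region against its distance from the outer end of Ubx (kb), with the 10 reproducible (IDR) peaks in red and the 76 other pooled regions in grey. The tallest peaks are 244 in Abd-B and 242 between Ubx and abd-A, and no red peak lies in abd-A.

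The sequences around 4 summits of the Antennapedia complex are shown because they hold the strongest summits of Antp, the only promoter-proximal summit of a Hox gene start outside Antp, and the summit next to bcd. They were read from the RefSeq Release 6 genome (dm6) on the plus strand, from 100 bp before to 100 bp after the summit. Capitals mark matches, on either strand, to those motifs described further on that are at least 6 bases long, except AGNNGGCG. Here they are the homeodomain core TAATTA, the Exd-Hox site TGATNNAT and CAGTGC. The shorter cores GAGAG and GCCAT, and AGNNGGCG, are not marked, so a window without capitals may hold them.
upstream of bcd, chr3R:6759580-6759780: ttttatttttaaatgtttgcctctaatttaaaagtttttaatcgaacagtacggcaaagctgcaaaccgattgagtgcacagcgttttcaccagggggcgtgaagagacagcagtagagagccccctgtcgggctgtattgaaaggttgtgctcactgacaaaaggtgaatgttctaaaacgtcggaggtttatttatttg
upstream of Dfd, chr3R:6791266-6791466: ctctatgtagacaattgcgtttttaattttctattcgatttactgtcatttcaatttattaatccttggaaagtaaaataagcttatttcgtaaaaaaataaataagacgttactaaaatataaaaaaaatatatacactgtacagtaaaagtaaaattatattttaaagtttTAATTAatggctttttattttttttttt
Antp intron, strongest summit, chr3R:6912537-6912737: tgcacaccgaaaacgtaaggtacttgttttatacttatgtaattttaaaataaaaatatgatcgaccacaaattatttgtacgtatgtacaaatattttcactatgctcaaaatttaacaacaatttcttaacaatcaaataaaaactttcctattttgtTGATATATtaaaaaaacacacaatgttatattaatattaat
Antp intron, second-ranked summit, chr3R:6936272-6936472: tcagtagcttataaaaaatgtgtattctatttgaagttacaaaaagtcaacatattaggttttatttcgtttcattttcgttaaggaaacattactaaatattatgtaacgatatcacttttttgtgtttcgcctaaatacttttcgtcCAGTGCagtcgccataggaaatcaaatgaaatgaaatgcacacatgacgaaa

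Those around 4 summits of the Bithorax complex are shown in the same way for the only summit of Ubx, the strongest summit of Abd-B and the 2 summits between Ubx and abd-A with the most motif matches and with the highest signal. Capitals again mark matches to motifs of at least 6 bases except AGNNGGCG. Here they are TAATTA, TGATNNAT and the Forkhead site TATTTAC, which reads GTAAATA on the plus strand.
Ubx intron, chr3R:16704320-16704520: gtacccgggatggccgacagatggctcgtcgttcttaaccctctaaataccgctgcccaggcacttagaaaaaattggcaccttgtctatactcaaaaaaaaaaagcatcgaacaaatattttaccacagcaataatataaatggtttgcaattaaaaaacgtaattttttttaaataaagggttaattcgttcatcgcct
bxd transcript, chr3R:16769473-16769673: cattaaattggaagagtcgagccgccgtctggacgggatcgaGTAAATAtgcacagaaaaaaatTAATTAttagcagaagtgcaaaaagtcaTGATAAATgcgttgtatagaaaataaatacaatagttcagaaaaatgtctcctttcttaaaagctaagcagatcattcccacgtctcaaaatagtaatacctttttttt
between Ubx and abd-A, strongest summit, chr3R:16798814-16799014: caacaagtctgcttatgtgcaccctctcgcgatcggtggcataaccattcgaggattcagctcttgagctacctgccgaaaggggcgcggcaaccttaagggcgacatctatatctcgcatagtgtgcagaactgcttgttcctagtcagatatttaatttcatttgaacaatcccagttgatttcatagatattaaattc
Abd-B intron, strongest summit, chr3R:16958183-16958383: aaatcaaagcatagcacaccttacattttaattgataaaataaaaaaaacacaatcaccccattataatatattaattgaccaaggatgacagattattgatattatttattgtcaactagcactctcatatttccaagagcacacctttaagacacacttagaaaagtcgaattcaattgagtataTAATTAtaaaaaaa

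The lab gene, the most anterior Hox gene, which acts in the head and in the midgut, spans 17164 bp at 3R:6661427-6678590 on the minus strand. Its summit at 6664983 lay in an intron, 1529 bp upstream of an internal lab start site. The signal was 63.1 in replicate 1, 64.7 in replicate 2 and 132 in the pooled list (rank 2183). Both replicates gave nearly the same value (log2 ratio of replicate 1 to 2, -0.04). The strongest lab region outside the reproducible list was much weaker, with 31.8 in replicate 1, 22.8 in replicate 2 and 61.4 pooled.

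The pb gene, needed for the adult mouthparts, spans 34264 bp at 3R:6707800-6742063 and held no reproducible peak. It held 9 pooled regions, of which 3 had a match in both replicates. The strongest, at 6723984, had a pooled signal of 85.6 (rank 3935), with 33.9 in replicate 1 and 47.7 in replicate 2. It sat just below the list, where the weakest Hox peak inside had 92.9 (rank 3484), in Antp. The regions just outside were 87.1 beside bcd, 85.7 between Dfd and Scr, and this region of pb. That of 87.1, with 18.4 in replicate 1 and 55.0 in replicate 2, had its summit inside the reproducible peak at 6760832.

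Between pb and Dfd lie bcd, zen and zen2, a group of genes derived from Hox genes that no longer act as such, and Ama, which encodes a secreted immunoglobulin-domain protein. All 4 summits of this interval lay within 3519 bp at bcd and Ama. The summit at 6759680, 214 bp upstream of bcd, the maternal determinant of the head and thorax, had 124 in replicate 1, 84.3 in replicate 2 and 205 in the pooled list (rank 1115). A further summit at 6760832, 1366 bp upstream of bcd, had 67.4, 84.9 and 158 in the same order. Replicate 1 was the higher at the bcd start and the lower at the farther summit.

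The strongest summit of either complex, at 6762997, lay in an intron of Ama, 1 bp from the exon that ends at 6762996, 404 bp from its start site and inside the antisense-oriented lncRNA:CR45593. Its signal was 312 in the pooled list (rank 530) and 176 in replicate 2 (rank 396). In replicate 1 no region had its summit within 100 bp, and the nearest, 122 bp away at 6763119, had 149 (rank 671). That region matched the next summit, at 6763199, which had 149 in replicate 1, 112 in replicate 2 and 252 in the pooled list and lay 205 bp upstream of another Ama start. The pair, 202 bp apart, thus rested on a single region in replicate 1. No peak lay in zen or zen2.

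Dfd, which specifies the mandibular and maxillary segments, spans 10593 bp at 3R:6791836-6802428 and is the only Hox gene on the plus strand. Its summit at 6791366 lay 470 bp upstream of its single annotated start site. The signal was 85.3 in replicate 1, 56.4 in replicate 2 and 141 in the pooled list (rank 1975), and replicate 1 was higher (log2 ratio 0.59). This was the only one of the 12 gene-span summits outside the transcribed span, since the other 11 lay in introns of their Hox gene and 0 in exons. The G+C content within 100 bp of this summit, 18.9%, was the lowest of the 25.

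Between Dfd and Scr lie mir-10 and a number of tRNA genes, and there 1 summit was found, at 6818802, in no annotated gene and 1092 bp from tRNA:Lys-TTT-2-1. It had 79.6 in replicate 1, 48.1 in replicate 2 and 139 in the pooled list. It was 9220 bp from mir-10, while a weak pooled region (43.6, rank 13229) had its summit 6 bp from that microRNA gene. Another microRNA gene of the complex, mir-993 between pb and Dfd, was 13134 bp from the nearest reproducible summit. Scr, which specifies the labial segment and the prothorax and starts the salivary glands, spans 26862 bp at 3R:6823120-6849981 and held no reproducible peak. Its strongest pooled region had 63.6 (rank 6017) and 44.2 in replicate 2, with no match in replicate 1. None of its 5 pooled regions was matched in both replicates. Outside the reproducible list, 1 of 3 regions was so matched in lab, 1 of 2 in Dfd and 5 of 26 in Antp. In abd-A 1 of 6 was, and in Abd-B 1 of 11. The share over all pooled regions was not measured, so nothing particular to pb, Scr or Ubx is read from these counts.

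Between Scr and Antp lies ftz, a pair-rule gene, which held no peak. The 1 summit there, at 6881744, was in lncRNA:CR44931, 17420 bp from the ftz start. Its signal was 77.2 in replicate 1, 75.4 in replicate 2 and 153 in the pooled list, so the values of both replicates were close.

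Antp, which specifies thoracic segments, the mesothorax above all, spans 102976 bp at 3R:6896253-6999228 on the minus strand, with start sites at 6932840, 6958370 and 6999228. All 7 summits lay in introns of Antp, and all 7 also in the overlapping protein-coding gene CG46458, so peaks cannot be given to either gene alone. They covered 32.9 kb around the start site at 6932840, with 4 downstream and 3 upstream of it. In the 62.9 kb from the last summit to the distal start site at 6999228 there was no reproducible peak and 15 pooled regions.

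The strongest Antp summit, at 6912637, lay 20203 bp downstream of the start at 6932840. It had 123 in replicate 1, 70.7 in replicate 2 and 199 in the pooled list (rank 1187), and with a log2 ratio of 0.80 it was the Hox summit most in favour of replicate 1. The next, at 6936372, lay 3532 bp upstream of that start and had 91.5 in replicate 1, 90.1 in replicate 2 and 183 in the pooled list. The values of the replicates were nearly equal there. The summit at 6903474, in an intron of Antp and an exon of lncRNA:CR43252, had 94.6, 58.0 and 150.

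The summit at 6920153, 12687 bp downstream of the same start, had 73.8 in replicate 1, 64.7 in replicate 2 and 147 in the pooled list. The summit at 6914534, 18306 bp downstream, had 50.8, 60.9 and 112, so replicate 2 was the higher. The closest to the start was a pair 202 bp apart. That at 6933164, 324 bp upstream, had 42.1 in replicate 2 and 103 in the pooled list, and that at 6933366, 526 bp upstream, had 63.0 in replicate 1, 40.1 in replicate 2 and 92.9 in the pooled list, the lowest of the 25. As at Ama, replicate 1 held a single region for the pair, 144 bp from the first and matched to the second. In the pooled list the pair beside the internal start was weaker than the other 5 Antp summits, while in replicate 1 its region, of 63.0, was above the 50.8 at 6914534.

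By the number of peaks and the span, the non-Hox gene most like Antp was Eip75B, an ecdysone-induced nuclear receptor gene on arm 3L, with 7 summits in 113744 bp (absolute log2 ratio of the spans 0.14). In all, 22 non-Hox genes held 7 summits and 44 protein-coding genes held 7 or more. These counts take the summits of a close pair, like that at the internal Antp start, as separate.

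Ubx, which specifies the metathorax with the haltere and the anterior abdomen, spans 77804 bp at 3R:16656623-16734426 on the minus strand and held 1 summit, the lowest density of the 5 genes with a peak (0.127 per 10 kb, beside 0.673 in Antp, 0.551 in lab, 0.863 in Dfd and 0.435 in Abd-B). The summit at 16704420 lay in an intron, 30006 bp from the only Ubx start site. Its signal was 80.5 in replicate 1, 56.0 in replicate 2 and 125 in the pooled list (rank 2334). No peak lay near the Ubx start. Of the 18 other pooled regions in Ubx, 4 were matched in both replicates, and the strongest had 74.4.

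Between Ubx and abd-A, 3 summits were found. That at 16769573 lay in lncRNA:bxd, a transcript of the bithoraxoid regulatory region upstream of Ubx, with 57.3 in replicate 1, 54.9 in replicate 2 and 117 in the pooled list. Those at 16794480 and 16798914 lay in no annotated gene, 6169 and 10603 bp from the start of Glut3. The first had 88.3 in replicate 1, 68.5 in replicate 2 and 156 in the pooled list. The other had 119, 127 and 242 (rank 840), the strongest of the intergenic summits of the Bithorax complex. Its replicate values were close (log2 ratio -0.09).

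The abd-A gene, which specifies most abdominal segments, spans 22836 bp at 3R:16807214-16830049 and held no reproducible peak. Its strongest pooled region had 44.2 (rank 12794) and 26.7 in replicate 1, with no match in replicate 2. It was thus the Hox gene with the weakest signal, below Scr at 63.6 and pb at 85.6.

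Between abd-A and Abd-B lies the sequence that holds the infra-abdominal regulatory regions and is covered for the most part by lncRNA:iab8. There 4 summits were found, and all 4 lay in this transcript. Those at 16838035 and 16869409 also lay in the overlapping protein-coding gene MSAmiP, so they cannot be given to either alone. The summit at 16869409 had 71.9 in replicate 1, 54.9 in replicate 2 and 128 in the pooled list. The summit at 16838035, 7986 bp upstream of the abd-A start at 16830049, had 32.7 in replicate 1 (rank 7726), 68.9 in replicate 2 (rank 2120) and 109 in the pooled list. This was the only Hox summit whose replicates differed by more than 2-fold (log2 ratio -1.08).

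The other summits of this interval were weak. That at 16913356 had 60.6, 43.8 and 103. That at 16908061 had 43.3 in replicate 2 and 95.5 in the pooled list, with the nearest replicate 1 region, of 47.5, at a distance of 134 bp. The microRNA genes mir-iab-4 and mir-iab-8, made from opposite strands of the same sequence, were 13067 bp from the nearest reproducible summit and 1188 bp from a pooled region of 80.5 (rank 4260).

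Abd-B, which specifies the posterior abdomen and the genitalia, spans 45025 bp at 3R:16927212-16972236 on the minus strand with 6 start sites, and held the strongest summit inside a Hox gene. This summit, at 16958283, lay in an intron, 1998 bp downstream of the start at 16960281. It had 147 in replicate 1 (rank 697), 99.2 in replicate 2 (rank 1212) and 244 in the pooled list (rank 832). The other, at 16970065, 1491 bp upstream of the start at 16968574, had 62.3, 56.5 and 116. Both lay in the distal part of the gene, and none lay at the proximal starts at 16934242 and 16944273.

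Between the replicates, 22 of the 25 Hox summits (88.0%) had a match within 100 bp in both lists, beside 92.4% of all peaks. The 3 exceptions were the summits at Ama, Antp and lncRNA:iab8 described above, all without a match in replicate 1. Replicate 1 was the higher at 17 of the 22 and replicate 2 at 5. The median log2 ratio was 0.38 with an SD across summits of 0.44, beside 0.16 and 0.47 over all matched peaks, and over those peaks replicate 1 was also the higher more often, at 2367 against 1137. Whether the 2 replicate lists share a scale is unknown, so the direction is not read as a difference between the embryos. The scatter plot of both replicates shows the Hox summits inside the cloud of all peaks.

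**Figure D3:**
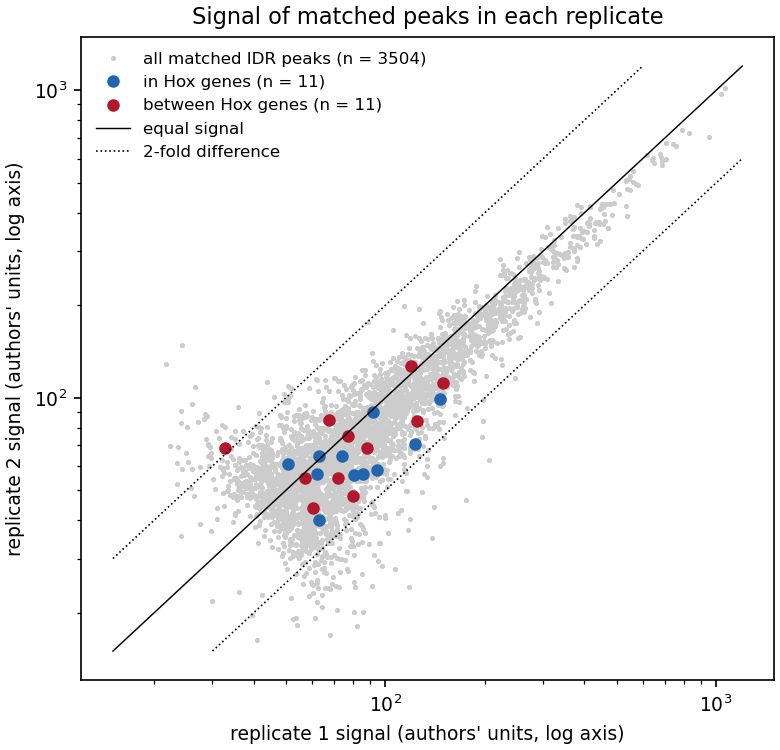
Signal in replicate 2 against replicate 1 (authors' units, log axes) for 3504 matched peaks (grey), 11 in Hox genes (blue) and 11 between them (red), with lines of equality and of a 2-fold difference. Of the 22 Hox peaks, 17 lie on the side of replicate 1 and only that at 16838035 lies beyond the 2-fold line.

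Each replicate was also ranked alone. Among its 3793 strongest regions, replicate 1 had 24 in the complexes, of which 21 matched a reproducible Hox summit, and replicate 2 had 25, of which 21 did. The share of matched regions among all 3793 was not measured for either replicate. Nothing particular to the complexes is thus read from these counts. The strongest unmatched region of replicate 1 was in Antp at 6912771, with 66.9 and no match in replicate 2. Its summit lay inside the reproducible peak with the summit at 6912637, but more than 100 bp from that summit. That of replicate 2 was in lncRNA:iab8 at 16857531, with 56.8, and 23.2 in replicate 1. In replicate 2 a region of pb, with 47.7, was also among them.

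By the median, Hox summits lay farther from start sites than all peaks did. Only 6 of 25 (24.0%) were within 1 kb of a protein-coding start, beside 43.8% of all peaks. These 6 were the summits of Dfd, of the Antp pair, of bcd and of the Ama pair. The median distance was 7986 bp, beside 1414 bp over all peaks, and 14 of 25 (56.0%) were more than 5 kb away, beside 25.8%. It was 2765 bp for the 12 summits in gene spans and 10603 bp for the 13 between genes. The genes are long and the intervals between them wide, and the part of length in this difference was not tested. In the cumulative plot of distances the Hox curve is below that of all peaks at 1 kb and at 5 kb, and it ends at 30006 bp, while the largest distance over all peaks was 76878 bp.

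**Figure D4:**
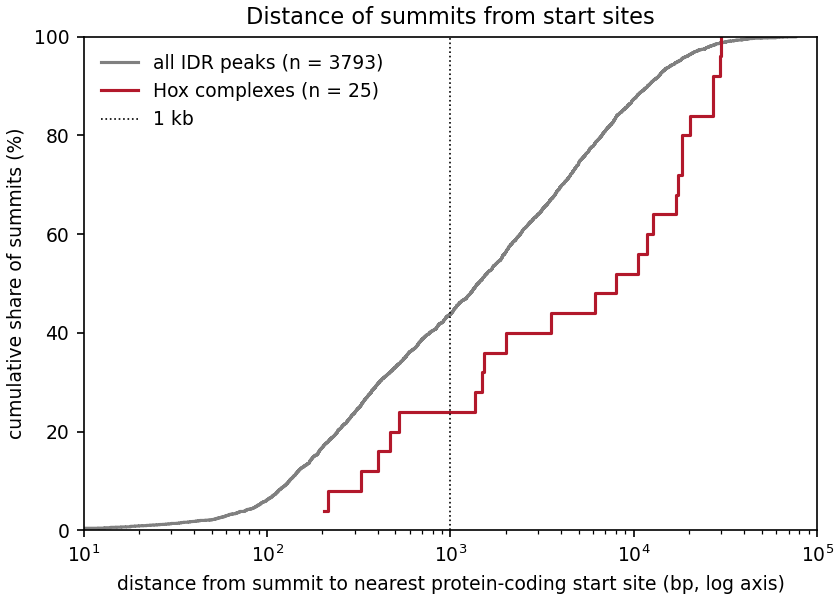
Cumulative share of summits (%) against the distance to the nearest protein-coding start site (bp, log axis) for 25 Hox complex summits (red) and all 3793 peaks (grey), with 1 kb dotted. At 1 kb the red curve has reached 24.0% and the grey curve 43.8%.

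Summits in the complexes were AT-rich. The G+C content within 100 bp of the summit was 32.7% ± 7.25 (SD across 25 summits) and that of flanks of the same length centred 500 bp to each side was 42.3% ± 6.63. Over all peaks the values were 33.8% ± 5.99 and 43.0% ± 6.27. G+C was below the flanks at 22 of 25 Hox summits (88.0%), beside 85.2% of all, a share close to the one over all peaks. The exceptions were the summit of Ubx (36.8% against 27.4%), that at 16798914 (44.8% against 29.6%) and that at 16869409 (45.3% against 36.1%). Summits in gene spans had 29.6% ± 6.65 and those between genes 35.5% ± 6.85. The G+C profile has its low stretch at the summit in both sets.

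**Figure D5:**
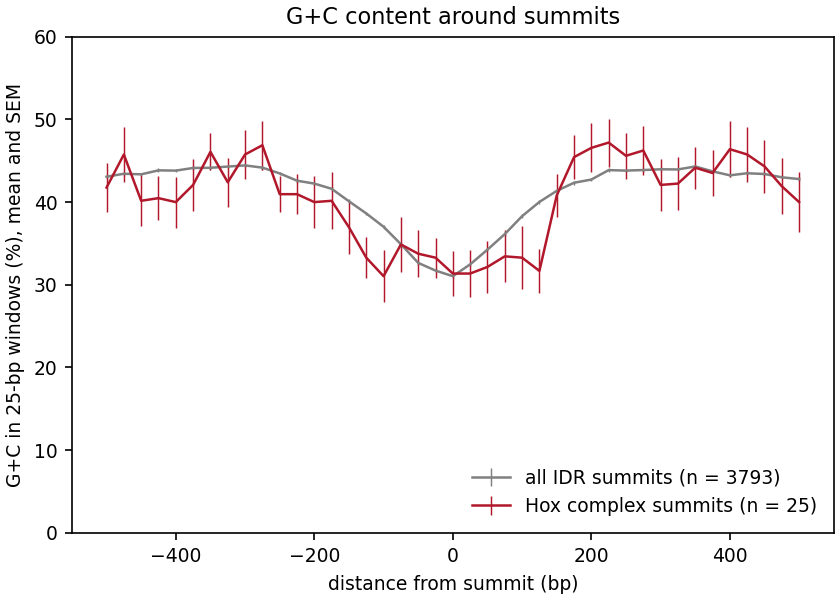
Mean G+C content (%) in 25-bp windows against the distance from the summit (bp), with SEM across summits, for 25 Hox complex summits (red) and all 3793 summits (grey). Both lines are lower near the summit than at 300 bp and beyond, and the red line has wide errors because it rests on 25 summits.

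Short motifs were searched on both strands within 100 bp of each summit, and their shares are descriptions. The homeodomain core TAATTA, which Hox proteins and many other homeodomain proteins recognise, was found at 6 of 25 Hox summits (24.0%), beside 19.1% of all peaks and 9.39% of 19253 windows of the same length centred on start sites. Its windows were those at Ama (6762997), Dfd, Antp (6914534 and 6933164), lncRNA:bxd and Abd-B (16958283). The Exd-Hox site TGATNNAT, bound by Hox proteins with Extradenticle, was found at 3 of 25, beside 16.2% and 10.1%: at Ama (6763199), at the strongest Antp summit and at lncRNA:bxd. The lncRNA:bxd window, printed above, held both.

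Sites of proteins that act at Polycomb response elements, and then other motifs, were looked for in the same way. Of the latter, CAGTGC was the leading short sequence of an earlier analysis of these peaks, so its share over all peaks is not independent of them. GAGAG, the core of the Trl (GAGA factor) site, was present at 7 of 25 (28.0%), beside 20.8% of all peaks and 4812 of the 19253 start windows. GCCAT, the core of the Pho site, was present at 6 (24.0%), beside 23.4% and 30.8%. The Forkhead sites TGTTTAC and TATTTAC were present at 3 and 5 of 25, beside 5.69% and 10.6% of all peaks and 6.12% and 5.67% of start windows. GATAAG was present at 1, CAGTGC at 2, in Antp (6936372) and Abd-B (16970065), and TATCGATA at 0, beside 10.7%, 16.4% and 1.48% of all peaks and 12.3%, 11.3% and 6.45% of start windows. With 25 windows, each counts for 4.0%, and no difference from the other peaks or from the start windows is read from these motif shares. The G+C content of the start windows was not measured.

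Genes that act with, upstream of or downstream of the Hox genes were taken from lists chosen with earlier results known. Their counts are read beside the 16.2% of all genes and the 49.0% of genes of 10 kb or more. Of 6 cofactors and partners, 1 held a peak, hth, which encodes the homeodomain cofactor Homothorax, with 5 summits of which the strongest had 111 in replicate 1, 87.2 in replicate 2 and 193 in the pooled list. Extradenticle (exd), teashirt (tsh), tio itself, disco and disco-r held none. Of the 5 gap genes that set the limits of Hox expression, hb, Kr, kni, gt and tll, 0 held a peak. Of the 5 other genes of the Antennapedia complex, 2 did, Ama and bcd.

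Polycomb and trithorax group genes, whose products keep Hox genes off or on, held peaks in 9 of 17 cases (52.9%). Of the 17, 7 span 10 kb or more, a class of which 49.0% held a peak. The strongest peak of this list was in Trl, with 681 in replicate 1 and 605 in replicate 2. Its pooled signal, 1280 (rank 11), was above every peak of the Hox complexes. Known targets of Hox proteins held peaks in 5 of 9 cases (55.6%), fkh, ct, dpp, rho and wg, and 4 of the 9 span 10 kb or more. The strongest peak of these targets was in fkh, a salivary gland target of Scr. It had 128 in replicate 1, 98.9 in replicate 2 and 230 in the pooled list. Dll, rpr, salm and ems held none. No test was run on these counts, and nothing particular to either list is read from them.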

How the data were processed

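Tio-eGFP ChIP-seq was measured in 2 replicates of whole embryos. Per the notes deposited with the samples, the authors made a list per replicate, a pooled list from both replicates, each with 1 control, and from these a list thresholded by irreproducible discovery rate (IDR), the reproducible peaks here. Aligner, peak caller and cut-off were not given in the sources used here. On dm6, each deposited list gives a signal per region, in the authors' own units, with -log10 q values. The summit offset, in bp from the region's start, is likewise the authors' and gave the summit positions (1-based). The number of reads is unknown, which allows no interval. The replicate lists and the pooled list each have 30000 regions. Of the Hox peaks, 23 of 25 had the list's commonest width of 436 bp.

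Genes and start sites came from Ensembl release 115 (BDGP 6.54) without transposable elements, and sequences from the RefSeq genome of the same build, with Python 3.11.15, pandas 2.3.3 and NumPy 2.4.6. Summits were given to a gene from its span and the 1 kb upstream. Summits matched at most 100 bp apart. Gene counts, matching and motif search were tested on simulated data. The genes and summits named are the 8 Hox genes, every reproducible summit in and between them, the strongest other pooled region of each gene, the strongest member of each list and the non-Hox gene most like Antp in count and span. Regions between the genes, of the replicate top lists and of microRNAs were added after their values were seen. Members, lists and motifs were chosen with earlier results of these data known. Alternatives were peak threshold, replicate, gene assignment, matching distance and window width. The dm3 lists were not used here.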

Additional observations from a re-analysis of the deposited data

How the results depend on the processing

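No paired analysis was possible because there is only 1 group and no test. With the stronger part of the reproducible list alone (1896 peaks), 2 Hox genes held a peak, Antp and Abd-B, with 5 summits in gene spans at a median signal of 183 and 7 between genes, and 3 of the Hox target genes held a peak. With the 10000 strongest pooled regions, 7 Hox genes held a region, abd-A being the exception, with 30 summits in gene spans (median 68.3) and 33 between genes. With either replicate left out, 5 to 6 Hox genes held a peak, pb being gained without replicate 1, and the median signal ran from 60.9 to 77.2 on the scale of a replicate. The homeodomain core was at 3 summits within 50 bp, a window chosen after seeing the data. Without upstream sequence Dfd lost its summit, and by nearest start site abd-A gained 1. Matching at 50 bp left 16 Hox summits matched in both replicates, and at 200 bp all 25 were. With summits under 500 bp apart counted once, a setting not planned beforehand, 11 were left in gene spans and 12 between genes. The first changes follow from the number of regions kept. Over all alternatives, 39 values of these summary results kept within their limits and 11 moved. Of the counts for single Hox genes, 40 kept within them and 16 moved. A count moved if it changed by a ratio above 1.5, or between none and any. The median signal moved at a change of 21.3% or more, and G+C content at its SD across summits, 7.25, or more. The medians of the replicate lists, on the scale of a replicate, were among those that moved, so the tally is not read as robustness. Unknown depth, an unstated signal scale, 2 replicates and mixed cell types limit all values.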

Other observations

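A motif like the core of the CTCF insulator protein's site, AGNNGGCG, was looked for after the summit sequences had been read, since CTCF is known to act at boundaries of the Bithorax complex. It was found on either strand within 100 bp of 4 of the 25 Hox summits (16.0%), beside 182 of 3793 peaks (4.8%) and 8.54% of start windows. These were the summits upstream of bcd, in lncRNA:CR44931 between Scr and Antp, in lncRNA:bxd and in lncRNA:iab8 at 16869409. All 4 lay between Hox genes and none inside one. The match was chosen on these sequences, so its share is a description and says nothing of CTCF binding. That in lncRNA:iab8 is shown with its surroundings on the plus strand, with the match in capitals.
lncRNA:iab8, chr3R:16869322-16869382: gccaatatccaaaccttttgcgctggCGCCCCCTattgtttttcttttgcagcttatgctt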
